A study of Mus musculus with 6 samples.

Results

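The 10 genes described here are markers of alternative macrophage activation and the receptor chains through which interleukin-4 (IL-4) and interleukin-13 (IL-13) bring it about. They are Retnla, Chil3, Mgl2, Clec10a, Cd163, Folr2, Lyve1, F13a1, Il4ra and Il13ra1, and they were found by symbol among the 29957 genes of the deposited expression table. The set was selected on measured values, the FPKM of these markers in the 6 libraries, because some vary from library to library. The levels of Retnla, Chil3 and Mgl2, which show this variation, are therefore given as a description, with no p-value. These genes were part of the fit over all genes and count among the tested markers below.

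RNA was sequenced from wild-type mouse bone marrow-derived macrophages, which are grown in culture from marrow cells. There were 3 control libraries and 3 libraries from cells given LPS (lipopolysaccharide, which is sensed by the receptor TLR4) and then PA-BSA, a free fatty acid preparation used as the second signal for the Nlrp3 inflammasome. The labels give no dose, time, sex or age and do not say whether the controls received a carrier, and the 2 agents cannot be told apart here. Separate animals or cultures are not mentioned for the replicates, so a p-value here reflects sample-to-sample spread that may be purely technical. Levels are FPKM, in which fragments are scaled by transcript length and by the size of the library. Judged by the steps between low values, 1 fragment on 1 kb corresponded to 0.0474 to 0.0721 FPKM, depending on the library. Of 10 macrophage markers (Adgre1 and Csf1r among them) each reached 1 FPKM in some library, and Lyz2, the macrophage lysozyme, was the highest, from 9112 to 18768 FPKM.

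Alternative activation is the state that macrophages take on when IL-4 or IL-13 binds a receptor built on the chain Il4ra. Janus kinases bound to the receptor then phosphorylate the transcription factor STAT6, which switches on genes such as Retnla, Chil3, Mgl2 and Arg1 in the mouse. Cd163, Folr2, Lyve1 and F13a1 are also known from macrophages that reside in tissues. LPS acts through NF-kB and interferon signals, which oppose much of this program.

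The 10 markers fell into separate patterns. Retnla, Chil3 and Mgl2 were abundant or readily detected in control 1, control 2 and LPS+PA-BSA 3 and held a few fragments in the other 3 libraries, whatever their treatment. Clec10a, Cd163 and F13a1 were 5.04, 6.76 and 6.72 times as high in controls as after LPS and PA-BSA, and every treated library lay below every control. Of all tested genes 36.9% showed this order, Clec10a among them, whereas Cd163 and F13a1 were too low to be tested. Folr2 was high in every library and fell a little. Il13ra1 rose 2.39-fold, the groups overlapped for Il4ra, whose call depended on the processing, and Lyve1 was near the limit of detection.

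Retnla, Chil3 and Mgl2 are described first. Retnla encodes RELM-alpha (also FIZZ1), a small secreted protein of the resistin family. It was at 49.4, 56.4 and 0.312 FPKM in controls 1 to 3 and at 0.131, 0.534 and 19.5 FPKM in LPS+PA-BSA 1 to 3. By the length of its longest transcript this is about 625, 539 and 2.59 fragments in the controls and about 1.48, 4.58 and 199 fragments in LPS+PA-BSA 1 to 3. Control 1, control 2 and LPS+PA-BSA 3 were thus high, the other 3 were near 0, and the 2 treatment groups overlapped. Chil3 encodes Ym1, a secreted chitinase-like lectin that is also made by neutrophils and their precursors. It was at 28.0, 31.2 and 0.145 FPKM in controls 1 to 3 and at 0.113, 0.392 and 6.8 FPKM in LPS+PA-BSA 1 to 3. The same 3 libraries were high, with about 179 to 909 fragments each, against about 3.09 to 8.65 in the others. Mgl2 encodes a C-type lectin of macrophages and dendritic cells that binds galactose and N-acetylgalactosamine. It was at 3.996, 4.66 and 0.0756 FPKM in controls 1 to 3 and at 0.0689, 0.0717 and 1.22 FPKM in LPS+PA-BSA 1 to 3. In the 3 libraries where it was low it rested on about 1.68 to 2.12 fragments.

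**Figure D1:**
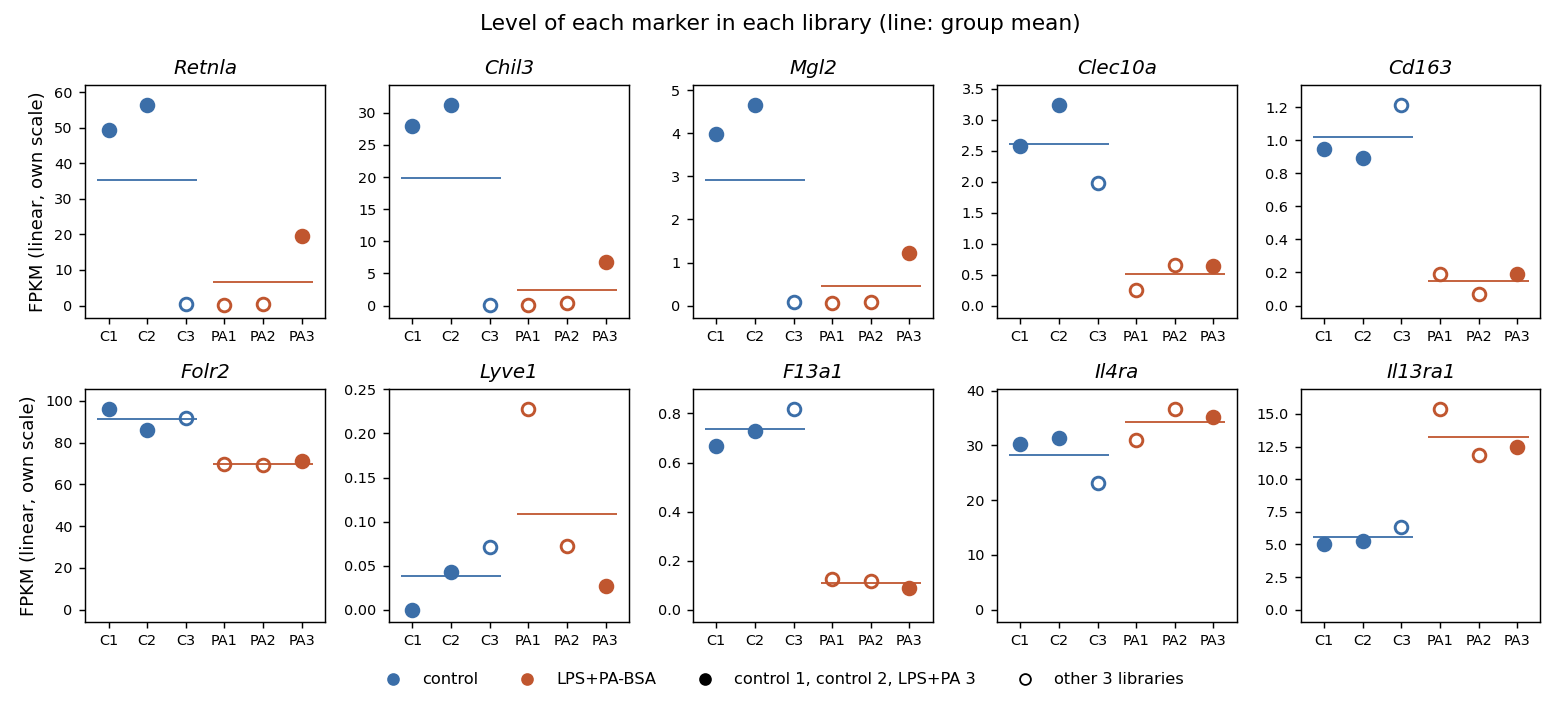
FPKM (y axis, linear, each gene on its own scale) of the 10 markers in the 6 libraries (x axis; C, control; PA, LPS+PA-BSA), with each group mean as a line and control 1, control 2 and LPS+PA-BSA 3 as filled points. Retnla, Chil3 and Mgl2 are high only at the filled points (for Retnla 49.4, 56.4 and 19.5 FPKM), whereas Clec10a, Cd163, F13a1, Folr2 and Il13ra1 separate by treatment.

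Among the libraries where the 3 genes were well detected, LPS+PA-BSA 3 was lower than both controls. The mean of controls 1 and 2 was 2.72 times the level in LPS+PA-BSA 3 for Retnla, 4.35 times for Chil3 and 3.55 times for Mgl2. These ratios rest on 1 treated library and have no replicate check. Retnla was at 1.77 and 1.81 times the FPKM of Chil3 in controls 1 and 2 and at 2.86 times in LPS+PA-BSA 3. In the other 3 libraries too few fragments were found for a ratio between groups. Across all 6 libraries the group means were 35.4 ± 30.6 and 6.71 ± 11.1 FPKM for Retnla (SD, n = 3 per group), 19.8 ± 17.1 and 2.44 ± 3.78 FPKM for Chil3, and 2.91 ± 2.48 and 0.453 ± 0.664 FPKM for Mgl2. The groups overlapped for each of the 3 genes, and within each group the SD was near to or above the mean. The differences between the group means, on the log2(FPKM + 1) scale used throughout, which understates the change of low genes, were -2.25 for Retnla, -2.16 for Chil3 and -1.19 for Mgl2. They depended on single libraries. Without control 3 they moved by more than 1.5 times, to -4.03, -3.73 and -1.96. They were also larger without LPS+PA-BSA 3 (-3.57, -3.04 and -1.54). Without any 1 of the other libraries they were smaller, down to -1.31, -1.33 and -0.76 without control 2.

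Over all 11364 genes tested, control 1, control 2 and LPS+PA-BSA 3 lay wholly above the other 3 libraries in 6.85% and wholly below them in 5.24%. They lay above by at least 1 on the log2(FPKM + 1) scale in 0.0968%, which is 11 genes. Retnla had the widest such gap of the table (3.74), Chil3 the second widest (2.49), and Mgl2 ranked 9 (1.05). These ranks describe the pattern for which the markers were proposed. Of the 7 tested markers, Clec10a, Folr2, Il4ra and Il13ra1 showed no such split. The excess of controls 1 and 2 over control 3 had a correlation of 0.59 with that of LPS+PA-BSA 3 over LPS+PA-BSA 1 and 2. This was taken across the tested genes, which are not independent replicates. The first excess had a correlation of 0.58 with the GC content of transcripts and the second one of 0.38. Transcripts rich in GC thus tended to be higher in control 1, control 2 and LPS+PA-BSA 3. The longest transcripts of Retnla, Chil3 and Mgl2 had 46.7%, 45.0% and 50.3% GC, where the median of tested genes was 49.1%. After each library's trend on GC content and transcript length was removed, the gap was 3.75 for Retnla, 2.52 for Chil3 and 0.94 for Mgl2.

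**Figure D2:**
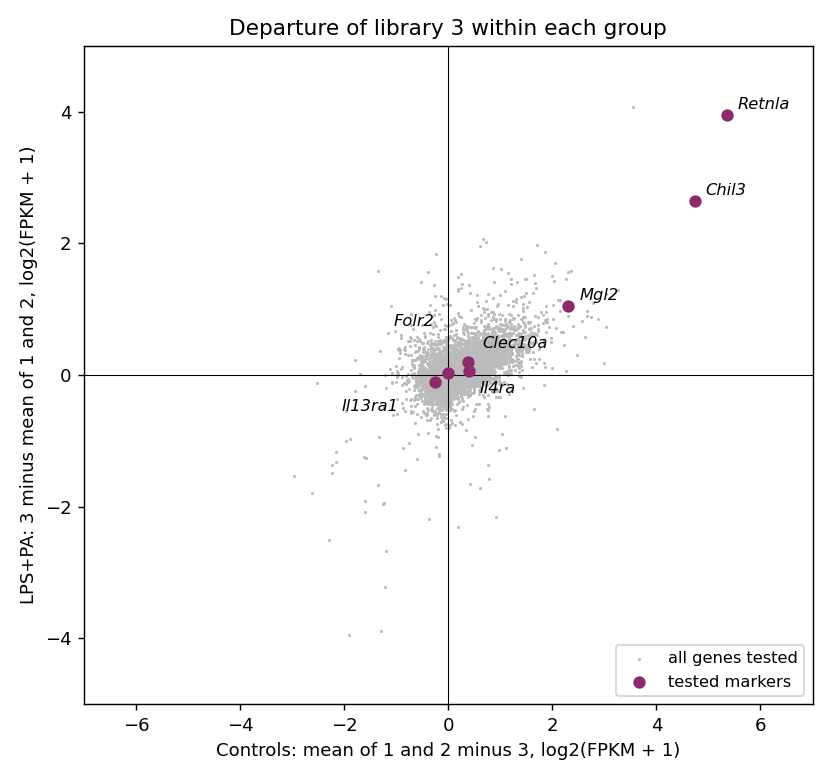
Mean of controls 1 and 2 minus control 3 (x axis) against LPS+PA-BSA 3 minus the mean of LPS+PA-BSA 1 and 2 (y axis), both in log2(FPKM + 1), for all 11364 tested genes (grey) and the 7 tested markers (purple). Retnla and Chil3 stand far from the cloud at the upper right, Mgl2 lies at its edge, and the other 4 markers lie near the centre.

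Other transcripts moved with this split. Of 9 neutrophil markers in the table, 3 lay above in control 1, control 2 and LPS+PA-BSA 3. Only 1 of the 4 tested, S100a9, was among them, where 6.85% of all tested genes were, and Ngp and Ltf were too low to be tested. The other tested markers did not show the split. S100a8 and Mmp8 were called higher after treatment. Camp was at 1.25, 1.17 and 0.288 FPKM in controls 1 to 3 and at 0.219, 1.33 and 0.763 FPKM in LPS+PA-BSA 1 to 3. Ngp, a protein of neutrophil granules, was at 5.92, 6.03 and 0 FPKM in controls 1 to 3 and at 0.0412, 0.0431 and 0.587 FPKM in LPS+PA-BSA 1 to 3. Ltf, the granule protein lactoferrin, was at 1.27, 1.4 and 0 FPKM and at 0.0456, 0 and 0.278 FPKM. S100a9, a calcium-binding alarmin of neutrophils and monocytes, was at 11.2, 9.61 and 1.80 FPKM and at 1.39, 2.87 and 7.19 FPKM. The neutrophil list summed to 16.5 to 32.5 FPKM in controls and 70.5 to 84.7 FPKM after LPS and PA-BSA. In the treated libraries most of this was S100a8, the partner of S100a9, at 57.7 to 67.1 FPKM. In controls S100a8 was at 6.11 to 8.30 FPKM. Ly6g was listed at 0 in control 3 and in all 3 treated libraries. The list of eosinophil, basophil and mast cell markers summed to 2.75 to 4.09 FPKM in the 6 libraries. Transcripts of other organs, chosen after their values were seen, showed the opposite split. A group of 12 genes of stomach, sperm, placenta and epidermis summed to 40.5, 69.4 and 47.4 FPKM in control 3, LPS+PA-BSA 1 and LPS+PA-BSA 2 and to 0.274, 0.251 and 0.521 FPKM in control 1, control 2 and LPS+PA-BSA 3. Among them Tff1, a secreted protein of the gastric epithelium, was at 2.74, 21.4 and 9.58 FPKM in the first 3 and listed at 0 in the others. Prm2, a protamine of sperm, was at 3.69, 1.5 and 1.64 FPKM and listed at 0 in the others. The part of these transcripts in the pattern of Retnla, Chil3 and Mgl2 was not tested. In bulk RNA, fewer cells of a type and less RNA per cell cannot be told apart.

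**Figure D3:**
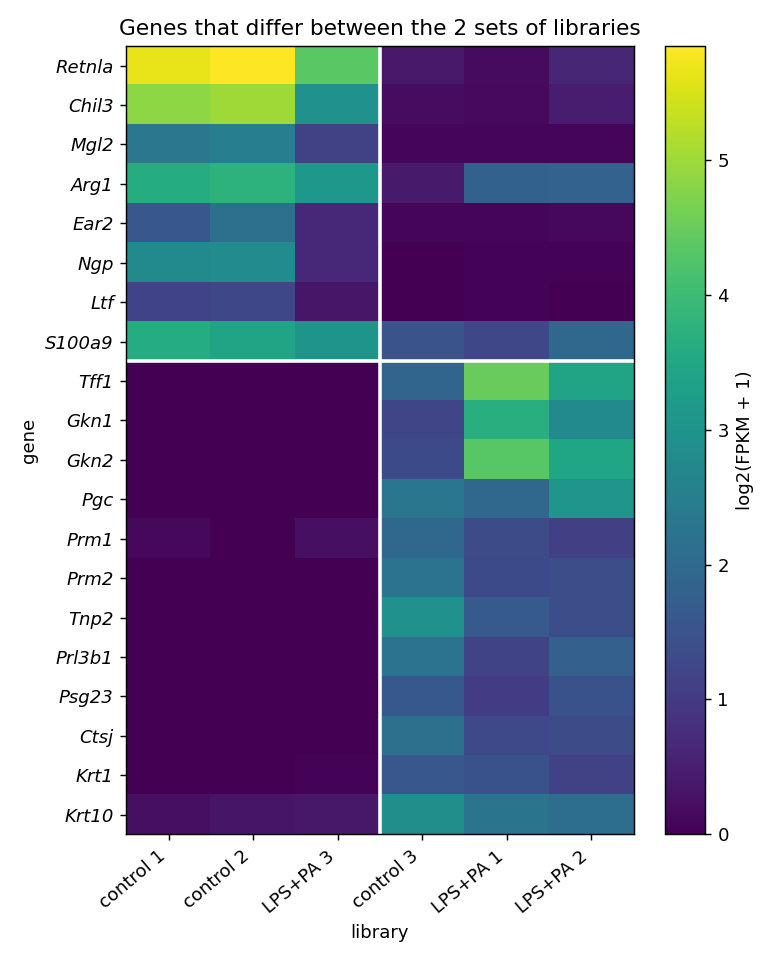
Level in log2(FPKM + 1) (colour) of 8 genes that were higher in control 1, control 2 and LPS+PA-BSA 3 (top rows) and of 12 transcripts of other organs (bottom rows), by library (columns). Neutrophil markers without the split, S100a8, Mmp8 and Camp among them, are not drawn. The white lines part the 2 sets of libraries and of genes. The genes of both blocks were chosen for their split after their values were seen. That the filled blocks lie on opposite corners therefore follows from the choice. Tff1 reached 21.4 FPKM in LPS+PA-BSA 1 and was at 0 in control 1.

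Since Retnla, Chil3 and Mgl2 moved together, the stretch from 250 bases before to 50 bases after their start sites is shown (RefSeq, GRCm38.p6). Capitals mark matches, on either strand, to TTCNNNNGAA, the spacing that STAT6 prefers, to TTCNNNGAA, the spacing of other STAT factors, and to TTGCNNAA, a C/EBP-type element.
Retnla: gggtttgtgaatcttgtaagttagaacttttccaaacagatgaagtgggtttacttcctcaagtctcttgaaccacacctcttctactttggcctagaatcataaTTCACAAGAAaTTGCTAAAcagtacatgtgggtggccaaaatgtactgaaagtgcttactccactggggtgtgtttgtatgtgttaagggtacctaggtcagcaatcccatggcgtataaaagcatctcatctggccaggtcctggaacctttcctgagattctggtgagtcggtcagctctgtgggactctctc
Chil3: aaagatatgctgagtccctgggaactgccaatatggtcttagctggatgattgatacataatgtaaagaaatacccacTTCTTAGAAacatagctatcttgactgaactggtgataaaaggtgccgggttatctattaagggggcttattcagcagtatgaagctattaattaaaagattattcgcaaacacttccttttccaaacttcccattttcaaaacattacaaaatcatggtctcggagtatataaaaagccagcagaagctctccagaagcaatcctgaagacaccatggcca
Mgl2: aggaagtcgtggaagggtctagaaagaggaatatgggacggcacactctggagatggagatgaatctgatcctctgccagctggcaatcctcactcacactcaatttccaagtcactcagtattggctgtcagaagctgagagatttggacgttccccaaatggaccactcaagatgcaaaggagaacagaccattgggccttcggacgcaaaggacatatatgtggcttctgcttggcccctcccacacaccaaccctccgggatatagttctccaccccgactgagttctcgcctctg
The window of Retnla is chr16:48842359-48842658 on the plus strand, that of Chil3 chr3:106167515-106167814 on the minus strand and that of Mgl2 chr11:70130107-70130406 on the plus strand. Retnla held a TTCNNNNGAA match at -145 to -136 from its start and a TTGCNNAA match at -134 to -127, 1 base apart and without overlap. Chil3 held a TTCNNNGAA match at -172 to -164, and the window of Mgl2 held none of the letters searched. Of 32851 promoter windows of this length, 6.95% held TTCNNNNGAA, 8.30% held TTCNNNGAA and 10.8% held TTGCNNAA, so each match is common and is given as a description only.

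The genes with a pattern most like these 3 were named by Pearson's correlation of log2(FPKM + 1) over the 6 libraries. For Retnla they were Aarsd1, Chil3, Gm9234, Rnase2a and Nans (r = 0.983 to 0.996), and 68 of the other 11363 genes reached 0.95. For Chil3 they were Nans, Mgl2, Imp4, Retnla and Clpp (r = 0.991 to 0.994), with 145 genes at 0.95 or more. For Mgl2 they were Imp4, Chil3, AC159819, H2aw and Dnaaf3 (r = 0.993 for each), with 234 at that level. Rnase2a, a ribonuclease of the eosinophil-associated family, was at 2.69, 2.78 and 0.207 FPKM in controls 1 to 3, and at 1.38 FPKM in LPS+PA-BSA 3 while listed at 0 in LPS+PA-BSA 1 and 2. With 6 libraries, correlations of this size describe shape and not size: Imp4 varied only between 3.74 and 5.86 FPKM.

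Clec10a, the neighbour and close relative of Mgl2, did not share its pattern. Both lie on the plus strand of mouse chromosome 11 in mm10, Mgl2 at 70130329 to 70137550 and Clec10a (Mgl1, a lectin for galactose) at 70156197 to 70170834. Their longest transcripts were 96.7% identical over 704 aligned bases, with an identical run of 183 bases, so reads can be split between them. Clec10a was at 2.57, 3.24 and 1.99 FPKM in controls 1 to 3 and at 0.248, 0.655 and 0.644 FPKM in LPS+PA-BSA 1 to 3. All controls were above all treated libraries. In control 3, where Mgl2 held about 1.72 fragments, Clec10a held about 64.2. Its group means were 2.60 ± 0.626 and 0.516 ± 0.232 FPKM (SD, n = 3 per group), a log2 fold change of -1.24 (SE 0.170, limma adjusted p = 0.00113). Clec10a reached 1 FPKM only in controls, so it entered the test through the group in which it is high. Its call was kept in the other fits in which it was tested, where its log2 fold change ran from -2.19 with a pseudocount of 0.1 to -1.05 after quantile normalization. The genes most like it were Aldh2, Taok3, B4galnt1, Soga1 and Dag1 (r = 0.997 to 0.999), and 1371 genes reached 0.95. Aldh2, the mitochondrial aldehyde dehydrogenase, was at 52.9, 66.6 and 35.5 FPKM in controls 1 to 3 and at 7.67, 12.8 and 12.5 FPKM in LPS+PA-BSA 1 to 3.

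Cd163, F13a1 and Lyve1 were too low for the filter of 1 FPKM in at least 3 libraries and were not tested. Cd163, the scavenger receptor for haptoglobin and haemoglobin, was at 0.945, 0.892 and 1.21 FPKM in controls 1 to 3. After LPS and PA-BSA it was at 0.192, 0.0677 and 0.192 FPKM. F13a1, the catalytic subunit of coagulation factor XIII and a transglutaminase, was at 0.666, 0.729 and 0.817 FPKM in controls 1 to 3 and at 0.125, 0.116 and 0.0883 FPKM in LPS+PA-BSA 1 to 3. For both genes every control was above every treated library, and control 3 was the highest library rather than the lowest. About 44.8 to 88.7 fragments were behind each control value of these genes and about 4.31 to 16.0 behind each treated value. Without a filter on low values Cd163 had a log2 fold change of -0.81 (limma adjusted p = 0.00294) and F13a1 one of -0.65 (limma adjusted p = 0.00119). In the authors' deposited table both genes were marked significant, with a fold change of 0.148 for Cd163 and of 0.149 for F13a1. Lyve1, a hyaluronan receptor of lymphatic endothelium and of some tissue macrophages, was at 0, 0.0430 and 0.0708 FPKM in controls 1 to 3 and at 0.228, 0.0718 and 0.0270 FPKM in LPS+PA-BSA 1 to 3. Its highest value rests on about 12.4 fragments and the others on fewer than 3, so no order between groups or libraries can be read.

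Folr2, the folate receptor beta of macrophages, was the most abundant of the 10. It was at 96.0, 86.0 and 91.9 FPKM in controls 1 to 3 and at 69.5, 69.1 and 71.1 FPKM in LPS+PA-BSA 1 to 3. The groups did not overlap, and control 3 lay between the other controls. The means were 91.3 ± 5.04 and 69.9 ± 1.05 FPKM (SD, n = 3 per group), a log2 fold change of -0.38 (SE 0.0727, limma adjusted p = 0.00509). The median log2 fold change of all tested genes was -0.11, so Folr2 fell by more than the middle of the table. After quantile normalization, which moved that median to 0.01, the value for Folr2 was -0.57. The genes most like it were Gm29291, Mapk1ip1, Tvp23a, Larp7 and Prokr1 (r = 0.991 to 0.997), and 856 reached 0.95. In the authors' deposited table Folr2 had a q-value of 0.254 and was not marked.

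**Figure D4:**
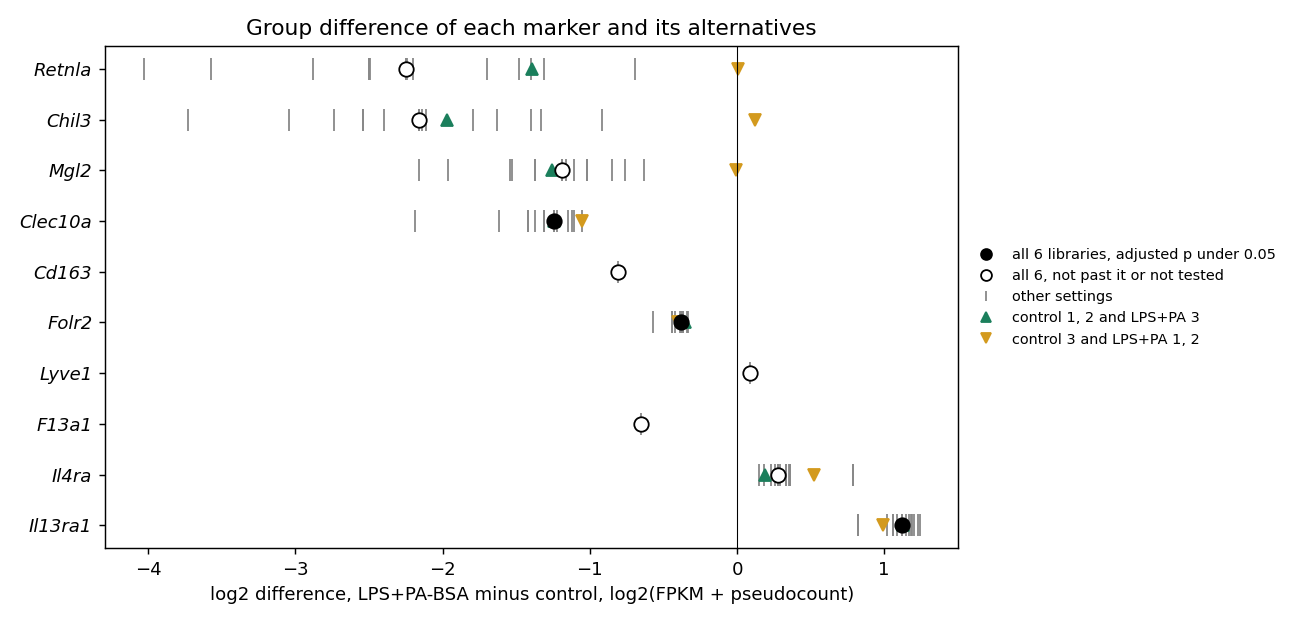
Log2 difference between LPS+PA-BSA and control (x axis; log2(FPKM + 1) except where the pseudocount was varied) of each marker (rows), with all 6 libraries as circles (filled where limma's adjusted p was under 0.05), other settings as grey ticks, and the difference within each set of libraries as triangles. The values of Retnla spread from -4.03 to 0.01, those of Folr2 only from -0.57 to -0.33, and the symbols of Retnla, Chil3 and Mgl2 for control 3 with LPS+PA-BSA 1 and 2 rest on too few fragments to be read.

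Il4ra and Il13ra1 form the receptors of the pathway. Il4ra pairs with the common gamma chain Il2rg to bind IL-4, or with Il13ra1 to bind IL-4 and IL-13. Il13ra1 was at 5.04, 5.27 and 6.32 FPKM in controls 1 to 3 and at 15.4, 11.9 and 12.5 FPKM in LPS+PA-BSA 1 to 3. All treated libraries were above all controls. The means were 5.54 ± 0.682 and 13.2 ± 1.86 FPKM (SD, n = 3 per group), a log2 fold change of 1.12 (SE 0.126, limma adjusted p = 0.000476). Its call was kept in all other fits, which gave log2 fold changes from 0.82 to 1.24. Il4ra was at 30.2, 31.3 and 23.1 FPKM in controls 1 to 3 and at 30.9, 36.6 and 35.2 FPKM in LPS+PA-BSA 1 to 3. Control 3 was the lowest library and the groups overlapped, as LPS+PA-BSA 1 was below control 2. The means were 28.2 ± 4.43 and 34.2 ± 2.98 FPKM (SD, n = 3 per group), a log2 fold change of 0.28 (SE 0.134, limma adjusted p = 0.118). Its longest transcript had 55.8% GC. With the trend on GC content and length removed, the treated libraries lay above all controls and the log2 fold change was 0.79 (limma adjusted p = 3.41e-05). With a term for the 2 sets of libraries it was 0.36 (limma adjusted p = 0.0342). The genes most like Il4ra were Themis2, Sema4a, Yipf2, Irak2 and Gtf2f1 (r = 0.988 to 0.994). Those most like Il13ra1 were Resf1, Aida, Gda, Suco and Ascc3 (r = 0.999 to 1.00), and 67 and 1569 genes reached 0.95.

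Of the 10 markers 7 were tested, and 1 (Il13ra1) rose and 2 (Clec10a and Folr2) fell. Over all tested genes 22.2% were called higher and 32.9% lower, so these counts are near the background. In 26.3% of the tested genes every treated library lay above every control. Retnla, Chil3 and Mgl2 passed the filter only through control 1, control 2 and LPS+PA-BSA 3. In the authors' deposited table Il13ra1, F13a1, Cd163 and Clec10a were marked significant. Il4ra, with a q-value of 0.0183 in the authors' deposited table, was not marked, nor were Retnla, Chil3, Mgl2, Folr2 and Lyve1.

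Around the receptors, 21 of 27 listed genes of IL-4 and IL-13 signalling were tested, of which 6 rose and 6 fell, with a median log2 fold change of -0.02. These counts are near the background, as 22.2% of all tested genes were called higher and 32.9% lower. The chains that can pair with the receptor or compete with it rose. Il2rg went from 50.6 ± 4.52 to 183 ± 16.1 FPKM (SD over the 3 libraries of each group; log2 fold change 1.84, SE 0.101, limma adjusted p = 2.37e-05). Il13ra2, which binds IL-13 and is known as a decoy receptor, went from 0.193 ± 0.132 to 5.72 ± 1.42 FPKM, and it passed the filter only through the treated libraries. The kinase gene Jak2 rose from 10.1 ± 1.15 to 49.7 ± 5.00 FPKM, and Socs3, an inhibitor of cytokine signalling, rose from 4.85 ± 1.03 to 37.8 ± 7.27 FPKM. Jak1 and Klf4 were the other 2 that rose. The level of Stat6 was 66.0 ± 3.27 FPKM in controls and 69.6 ± 3.32 FPKM after treatment (a log2 difference of 0.08, SE 0.0766, limma adjusted p = 0.427). Pparg, a nuclear receptor induced in alternative activation, fell from 6.10 ± 0.4997 to 0.808 ± 0.138 FPKM, and its partner Rxra from 22.2 ± 6.48 to 6.60 ± 1.05 FPKM. Jak3, the kinase bound to the common gamma chain, fell from 2.97 ± 0.951 to 1.30 ± 0.164 FPKM, a log2 fold change of -0.76 (limma adjusted p = 0.0143). It was -0.69 without control 1 (limma adjusted p = 0.0513) and 0.03 with the GC and length trend removed. Il4 itself was at 1.22, 1.16 and 1.47 FPKM in controls 1 to 3 and at 0.602, 0.590 and 0.393 FPKM in LPS+PA-BSA 1 to 3. Il4 was called lower (log2 fold change -0.58, SE 0.0974, limma adjusted p = 0.00287), but it rests on about 4.06 to 15.5 fragments per library and passed the filter only through the controls. With the GC and length trend removed, 11 genes of this list rose.

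**Figure D5:**
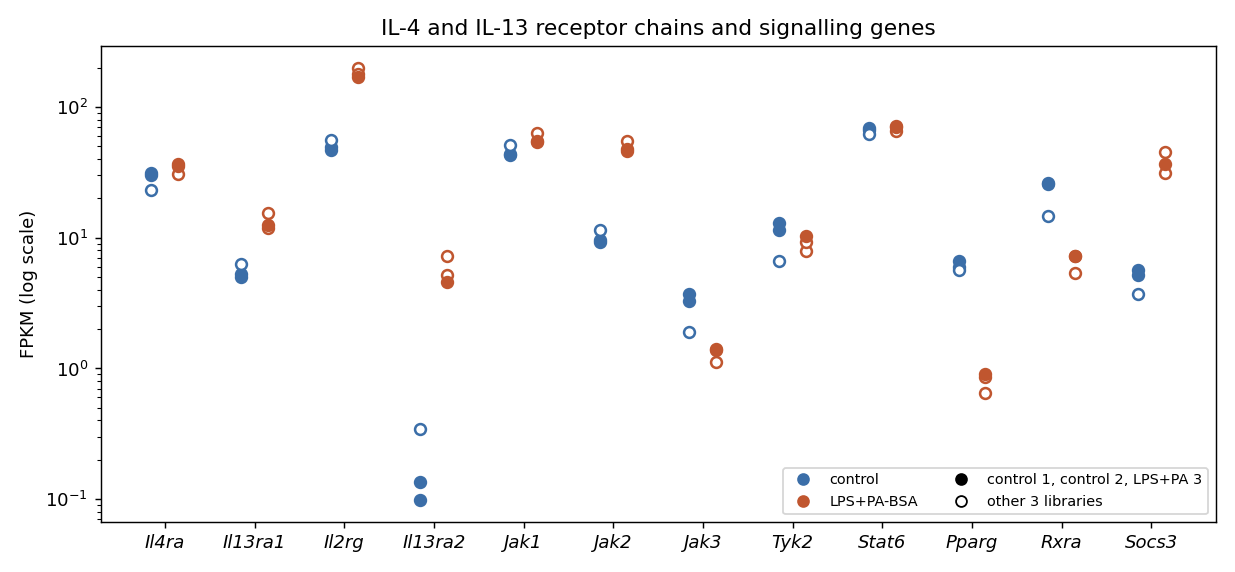
FPKM (y axis, log scale) of receptor chains, kinases and targets of IL-4 and IL-13 signalling in each library, controls in blue and LPS+PA-BSA in orange, with control 1, control 2 and LPS+PA-BSA 3 filled. Il13ra1, Il2rg, Il13ra2, Jak2 and Socs3 lie higher after LPS and PA-BSA, Pparg and Rxra lie lower, and Stat6 stays near 66.0 and 69.6 FPKM.

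Of 30 other markers of alternative activation 19 were tested, and 6 rose and 9 fell, with a median log2 fold change of -0.35. Among all tested genes 22.2% were called higher and 32.9% lower. The list holds targets of IL-4 beside scavenger receptors and proteases, and its members did not move one way. Mrc1, the mannose receptor, fell from 105 ± 7.84 to 3.32 ± 0.342 FPKM, with control 3 the highest library at 113 FPKM. Fn1, fibronectin, fell from 149 ± 12.1 to 27.1 ± 3.12 FPKM, the lectin gene Cd209f from 19.5 ± 4.71 to 5.86 ± 1.80 FPKM, and its relative Cd209g from 4.96 ± 1.38 to 1.09 ± 0.199 FPKM. Reads of Cd209f and Cd209g can be shared within their family. The chemokine gene Ccl22 rose from 0.167 ± 0.0265 to 15.8 ± 2.02 FPKM, and it passed the filter only through the treated libraries. The arginine transporter gene Slc7a2 rose from 2.98 ± 0.396 to 38.0 ± 0.475 FPKM, the collagenase gene Mmp13 from 55.1 ± 8.64 to 251 ± 39.97 FPKM and the scavenger receptor gene Msr1 from 40.05 ± 4.32 to 126 ± 13.1 FPKM. The split of the libraries seen for Retnla was found in 1 of the 19 tested genes of this list, Arg1, where 6.85% of all tested genes showed it, and in Ear2 and Pdcd1lg2, which were too low to be tested. By order of the libraries alone, it was also found in 4 of the 21 tested genes of IL-4 and IL-13 signalling (Tyk2, Ptpn1, Crebbp and Kdm6b). Their 2 sets of libraries lay close together. LPS+PA-BSA 3 and LPS+PA-BSA 2 were at 10.2 and 9.23 FPKM for Tyk2 and at 19.8 and 19.4 FPKM for Ptpn1. For Crebbp LPS+PA-BSA 3 was at 4.10 FPKM and LPS+PA-BSA 1 at 3.84 FPKM. For Kdm6b control 1 was at 1.08 FPKM and LPS+PA-BSA 2 at 1.02 FPKM. Arg1, arginase, was at 11.2, 12.7 and 0.346 FPKM in controls 1 to 3 and at 2.51, 2.57 and 7.65 FPKM in LPS+PA-BSA 1 to 3 (a log2 difference of -0.35, SE 0.918, limma adjusted p = 0.760). Ear2, a ribonuclease of the same family as Rnase2a, was at 2.02, 3.49 and 0.0808 FPKM in controls 1 to 3 and at 0.0739, 0.0893 and 0.570 FPKM in LPS+PA-BSA 1 to 3.

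Genes that go with Cd163, Folr2, Lyve1 and F13a1 in tissue-resident macrophages mostly fell. Of 30 listed genes 26 were tested, and 18 fell and 4 rose, with a median log2 fold change of -1.60 where all tested genes had -0.11. The shares called over all tested genes were 32.9% lower and 22.2% higher. Selenop, the selenium carrier, fell from 808 ± 22.4 to 88.2 ± 0.646 FPKM, and Gas6, a ligand of receptors for dying cells, from 266 ± 54.2 to 18.1 ± 2.699 FPKM. The scavenger receptor gene Stab1 went down from 121 ± 54.2 to 6.54 ± 1.095 FPKM, and Hpgd, which breaks down prostaglandins, from 20.0 ± 1.66 to 0.405 ± 0.177 FPKM (SDs over 3 libraries). Hpgd passed the filter only through the controls, as did Pparg. The 4 that rose were the chemokine genes Ccl12 (2.62 ± 0.799 to 60.9 ± 3.60 FPKM) and Ccl8 (6.69 ± 1.56 to 72.8 ± 6.27 FPKM), the endothelin receptor gene Ednrb (11.2 ± 1.30 to 23.9 ± 2.47 FPKM) and Hmox1, haem oxygenase (807 ± 234 to 1266 ± 82.9 FPKM). The rise of Hmox1 (log2 fold change 0.69, limma adjusted p = 0.0374) missed the threshold without control 2, without any 1 of the treated libraries, with the replicate block and without a filter, while its log2 fold change stayed between 0.65 and 0.79. The libraries were not alike within this list. Pf4, a platelet chemokine also made by macrophages, was at 22.7, 24.7 and 2.03 FPKM in controls 1 to 3 and at 1.92, 3.32 and 7.32 FPKM in LPS+PA-BSA 1 to 3. By order of the libraries alone, Pf4, Ninj1 and Siglec1, 3 of the 26 tested genes, showed the split of Retnla and were not called. Of all tested genes 6.85% showed it. For Ninj1 LPS+PA-BSA 3 was at 37.7 FPKM and LPS+PA-BSA 2 at 25.7 FPKM. For Siglec1 control 1 was at 74.9 FPKM and LPS+PA-BSA 2 at 69.5 FPKM, so the sets lay close together. Among the genes that fell, Stab1 was at 147, 157 and 58.6 FPKM in controls 1 to 3, and Fcgrt and the complement genes C1qa, C1qb and C1qc also had control 3 below the other controls. Of 7 tested stromal and endothelial markers 6 fell and 1 rose: the list of 10 summed to 93.3 to 176 FPKM in controls and 36.4 to 45.5 FPKM after LPS and PA-BSA, led by Col1a1, and its part in these falls was not tested.

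Close relatives of the 10 markers were mostly near 0. Of 27 listed genes 21 were in the table and 5 were tested, of which 1 rose and 2 fell. Across all tested genes 22.2% were called higher and 32.9% lower. Chil4, whose longest transcript is 94.7% identical to that of Chil3 with a shared run of 136 bases, did not exceed 0.0368 FPKM in any library. Retnlg, a resistin-like gene of neutrophils, was at 0.555, 0.595 and 0.194 FPKM in controls and listed at 0 in all treated libraries. Folr1 stayed at or below 0.220 FPKM. Slc46a1, the proton-coupled folate transporter, fell from 3.16 ± 0.935 to 1.44 ± 0.156 FPKM, and Cd5l, a soluble relative of Cd163 with scavenger receptor domains, from 303 ± 55.4 to 48.9 ± 11.6 FPKM. Cd44, a hyaluronan receptor like Lyve1, rose from 34.4 ± 1.51 to 75.8 ± 5.07 FPKM, with SDs over 3 libraries.

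In mm10 each of the 10 is annotated as protein-coding, with values given per gene rather than per exon. Retnla lies on chromosome 16 at 48842551 to 48844461, Chil3 on chromosome 3 at 106147554 to 106167564 and Cd163 on chromosome 6 at 124304656 to 124330527. Chromosome 7 holds Folr2 at 101839988 to 101857194, Lyve1 at 110850607 to 110863239 and Il4ra at 125552120 to 125579474. F13a1 lies on chromosome 13 at 36867178 to 37050244 and Il13ra1 on chromosome X at 36112110 to 36171259.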

How the data were processed

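RNA of 6 libraries was prepared from poly(A) selected RNA with removal of the dUTP-marked second strand and sequenced as read pairs, per the labels' protocols. The authors deposited 1 table with unpooled FPKM values. Build mm10 and the tools HISAT2 2.2.1, StringTie 2.1.6, cutadapt 1.9, edgeR and DESeq2 appear, without roles, in the submitters' processing notes. Per the file headers, the authors' comparison columns hold a p-value, a q-value, a fold change as a ratio and the log2 of that ratio; their tool was not given in the sources used here.

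Groups and replicate numbers came from the titles. No counts were used, so limma 3.58.1 (R 4.3.3) with a variance trend was fitted to log2(FPKM + 1) of the 11364 genes that reached 1 FPKM in 3 or more libraries. Tests were two-sided, the threshold was a Benjamini-Hochberg adjusted p of 0.05 over these genes, and the script was tested on simulated data. A symbol on several rows was read from the row with the highest mean. Fragments were estimated from FPKM, the longest GENCODE M21 transcript and each library's value of 1 fragment, taken from the most frequent step over genes with 1 transcript, and cover counting error only. Trends on GC content and length were removed with natural splines of 5 degrees of freedom. The 10 markers, the lists and the 2 sets of libraries were chosen with earlier results of these data known. Named genes were the 10 markers, the 4 largest called rises and falls of each list, and the 5 genes most correlated with each tested marker; others were chosen after their values were seen. Python 3.11.15, pandas 2.3.3, numpy 2.4.6, Biopython 1.88 and matplotlib 3.10.9 were used.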

Additional observations from a re-analysis of the deposited data

How the results depend on the processing

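Of 30 named genes past the threshold, 28 kept their direction and their call in every alternative fit over all libraries or with 1 left out in which they were tested, the exceptions being Jak3, whose log2 fold change was 0.03 with the GC and length trend removed, with or without the replicate block, and Hmox1, whose log2 fold change kept its sign. With 3 or fewer libraries per group, each library carries much weight. The count of markers that rose was 1, and 2 with a term for the sets, with the GC and length trend removed and with that removal plus the replicate block. The count that fell was 2. It was 4 with no filter, 1 with a filter at 5 FPKM, 1 to 5 within the 2 sets (5 within control 1, control 2 and LPS+PA-BSA 3, and 1 within control 3, LPS+PA-BSA 1 and LPS+PA-BSA 2, a choice made after seeing the data, with 1 sample in one arm assumed to vary like the others) and 2 to 5 over the libraries left out in turn, with 5 without control 3. Both counts of 5 include Retnla, Chil3 and Mgl2, which were selected for this split, so they support nothing. For IL-4 and IL-13 signalling, 11 rose with the GC and length trend removed and 10 with the replicate block as well, while the number that fell was 3 within control 3, LPS+PA-BSA 1 and LPS+PA-BSA 2, and 3 to 9 with 1 library left out (3 without control 1, 9 without control 3). For the relatives of the markers, 2 rose with the sets term, with the GC and length trend removed, with that removal plus the replicate block, and within control 1, control 2 and LPS+PA-BSA 3; 5 fell without a filter, 1 with a filter at 5 FPKM and 1 within the other set. The counts of the other 2 lists stayed within 1.5 times of the main ones. The cause of these moves was not tested, except that the filters change which genes enter.

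Same-numbered libraries did not deviate together (correlations of their deviations from the group means -0.47, 0.09 and -0.59 for numbers 1 to 3). The split of control 1, control 2 and LPS+PA-BSA 3 from the others parts every same-numbered pair. These correlations therefore cannot show whether the numbers pair the samples. With the replicate block 1 marker rose and 2 fell, as without it. Lyve1, and Retnla, Chil3 and Mgl2 in 3 libraries, rest on a few fragments, so no ratio between those libraries can be read.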
